A study of Mus musculus with 4 samples.

Results

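Class 14 is 1 of the groups of nuclei with like open chromatin that the authors drew and deposited for a single-nucleus study of the mouse mammary gland. Its members here are the adult nuclei that carry class 14 in the deposited table of motif scores. There are 84 of them among 5269 adult nuclei and 7846 nuclei in all. Of these, 25 came from adult replicate 1 (1.01% of its 2465 nuclei, Wilson 95% interval 0.688% to 1.49%) and 59 from adult replicate 2 (2.10% of 2804, 1.63% to 2.70%). The intervals cover counting error only. Fetal replicate 1 had no nucleus of class 14 and fetal replicate 2 had 1, which was left out.

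All libraries came from mammary glands of wild-type CD1 mice, sorted for EpCAM, an epithelial surface protein, and against other lineages (Lin-). The adult mice were 8 weeks old and the fetal glands were taken at embryonic day 18, with 2 libraries per stage labelled as biological replicates. The labels do not say how many mice each library pooled. In single-nucleus ATAC-seq a transposase cuts open DNA and leaves barcoded ends, so reads from a region show that it was accessible in that nucleus.

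The adult mammary epithelium has an outer basal layer of contractile myoepithelial cells, which rely on the transcription factor p63 (Trp63) and keratins Krt5 and Krt14, and an inner luminal layer. Mature luminal cells carry the estrogen and progesterone receptors and depend on the pioneer factor Foxa1. Luminal progenitors express Kit and Elf5 and give rise to milk-secreting cells. Adult cells of the basal and luminal layers are known mostly to renew themselves separately.

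Class 14 was set against adult classes 1 and 8 together (335 and 715 nuclei in replicates 1 and 2), called basal-like here from the markers below, and classes 2 and 11 (1002 and 1074 nuclei), called mature luminal-like. Classes 3 and 7 (921 and 805 nuclei), called luminal progenitor-like, and class 10 (82 and 61 nuclei) were also measured. A barcode shared by 1 basal and 1 mature luminal nucleus would give levels between theirs, so regions in which class 14 lay above or below both references were counted separately. The authors drew the classes from the accessibility of these same nuclei. A call in this text therefore describes a difference that is large against the residual spread of the fit, and is no independent test of the classes. That spread is shared by all groups fitted, after differences between the 2 libraries are removed. Nuclei of a library are not replicates.

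Class 14 barcodes held more reads than those of either reference. The median was 7571 reads per nucleus in replicate 1 (range 2344 to 28652) and 8412 in replicate 2 (2100 to 32716). Basal-like nuclei had medians of 3926 and 4532, and mature luminal-like nuclei 4643.5 and 6160. Class 10 was deeper than class 14, with 8340.5 and 10406. In all, class 14 comprised 262384 and 585780 reads, against 1615142 and 3994925 for the basal-like and 5744170 and 8181983 for the mature luminal-like nuclei. The share of class 14 reads in promoter regions was 22.7% and 21.0%, beside 22.5% and 21.6% in basal-like and 24.7% and 21.4% in mature luminal-like nuclei. No barcode was shared between libraries. How barcodes holding more than 1 nucleus were treated is not given in the sources used here, no caller was run, and their part in the results below was not tested.

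Distal regions that set the lineages apart were accessible from both lineages in class 14. The 3 region sets were drawn from a fit without class 14, each of distal regions of 1000 bases that were higher in 1 lineage than in each of the other two (edgeR quasi-likelihood test with Benjamini-Hochberg adjustment, adjusted p under 0.05 and log2 fold change of at least 1). The basal set held 4018 regions, the mature luminal set 8570 and the progenitor set 2438, of 54351 tested. The reference nuclei were used to draw these sets, while those of class 14 and class 10 were not. In the basal set fell 2.85% of class 14 reads in replicate 1 and 2.65% in replicate 2 (mean 2.75% ± 0.143, SD, n = 2). Basal-like nuclei placed 6.09% ± 0.417 of their reads there and mature luminal-like nuclei 0.663% ± 0.0170. The 2 class 14 libraries thus lay apart from both references, with no overlap.

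In the mature luminal set fell 5.16% and 4.77% of class 14 reads (mean 4.97% ± 0.269, SD, n = 2). Mature luminal-like nuclei gave 8.73% ± 0.193 and basal-like nuclei 0.862% ± 0.0273. Class 14 again lay between the references without overlap. Luminal progenitor-like nuclei also lay between in both sets, at 1.09% in the basal and 1.32% in the mature luminal set. Lying between is thus not particular to class 14. On a scale from the mature luminal-like to the basal-like level, class 14 stood 38.3% and 38.5% of the way in the basal set. On the reverse scale it stood 53.5% and 50.8% of the way to the mature luminal-like level in the mature set. An exact permutation test of 2 against 2 libraries cannot give a two-sided p below 0.33, so no p is given for these shares.

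The progenitor set held a small share of class 14 reads. It took 0.709% and 0.624% of class 14 reads (0.666% ± 0.0606), beside 0.644% ± 0.0252 in basal-like, 0.623% ± 0.00831 in mature luminal-like and 3.21% ± 0.257 in luminal progenitor-like nuclei. The class 14 values overlapped those of the basal-like and mature luminal-like nuclei. Class 10 differed here: it placed 1.81% ± 0.216 of its reads in the progenitor set and 5.27% ± 0.0887 in the mature luminal set, but 0.830% in the basal set. A fetal set of 17358 distal regions, higher in fetal than in adult nuclei with class 14 left out, took 3.06% and 2.71% of class 14 reads. That lay between the 1.23% ± 0.0455 of mature luminal-like and the 4.87% ± 0.200 of basal-like nuclei, and below the 3.45% of luminal progenitor-like nuclei.

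**Figure D1:**
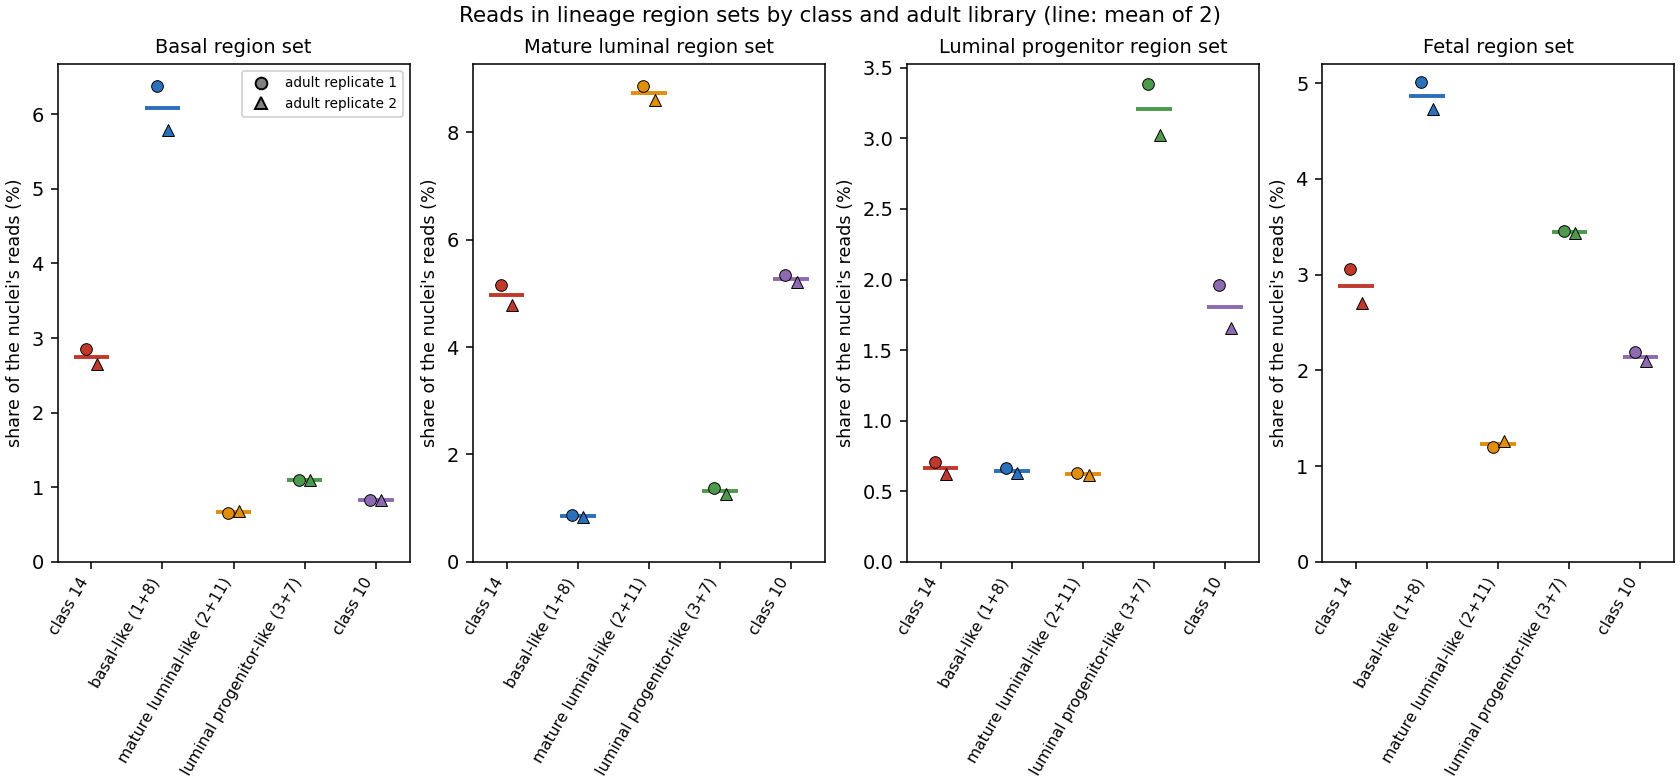
Share of reads (%, y axis from 0) in the basal, mature luminal, luminal progenitor and fetal region sets for 5 groups of adult nuclei. Each point is a library, circles for replicate 1 and triangles for replicate 2, and each line is the mean of 2. Class 14 lies between the basal-like and mature luminal-like groups in the basal and mature luminal sets (2.75% and 4.97%) and beside them in the progenitor set (0.666%).

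With the 2 libraries pooled, class 14 had reads and lay between the references in 3176 of the 4018 basal regions and 5674 of the 8570 mature luminal regions. It lay above both references in 219 and 1278 of these and below both in 568 and 994. The remaining 55 and 624 had no read in class 14 or in the lower reference, so they show no intermediate level. In all, 453 basal and 1487 mature luminal regions had no class 14 read. Within single libraries fewer regions held class 14 reads and lay between. In the basal set these were 1623 in replicate 1, where 1728 had no class 14 read, and 2601 in replicate 2, where 881 had none. In the mature luminal set they were 2066 in replicate 1, with 2113 above both and 4343 at 0 reads, and 4541 in replicate 2, with 1482 above both and 2424 at 0.

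Reads of single class 14 barcodes, called nuclei here, fell in both sets of regions. Whether each barcode held 1 nucleus was not tested. A cut was placed for each set at the 95th percentile of the opposite lineage in the same library, at 1.01% and 1.07% of reads for the basal set and 1.45% and 1.35% for the mature luminal set. All 25 class 14 nuclei of replicate 1 and 57 of 59 of replicate 2 exceeded both cuts. Of basal-like nuclei 17 of 335 (5.07%) and 34 of 715 (4.76%) did, and of mature luminal-like nuclei 51 of 1002 and 54 of 1074, near the 5% that the cut allows. Luminal progenitor-like nuclei exceeded both in 216 of 921 (23.5%) and 136 of 805 (16.9%), and class 10 nuclei in 21 of 82 (25.6%) and 8 of 61 (13.1%).

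Class 14 nuclei of low depth exceeded both cuts as well. Among class 14 nuclei below their median depth, 12 of 12 and 28 of 29 exceeded both. With every nucleus thinned to 2000 reads, 24 of 25 and 55 of 59 did. A progenitor cut set in the same way was exceeded by 0 of 25 and 2 of 59 class 14 nuclei, while 80 of 82 and 56 of 61 class 10 nuclei exceeded it.

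The spread within class 14 was wide. The basal share of single nuclei ran from 1.40% to 4.62% with a median of 2.71% in replicate 1, and from 0.857% to 5.32% with a median of 2.57% in replicate 2. The mature luminal share ran from 2.62% to 8.55% (median 4.96%) and from 1.51% to 7.41% (median 4.78%). Across nuclei the basal and mature luminal shares had a Spearman correlation of -0.31 in replicate 1 (n = 25) and 0.17 in replicate 2 (n = 59). The basal share against depth gave 0.02 and -0.28. These are descriptions of nuclei that share a library, and the sign of the first differed between libraries.

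**Figure D2:**
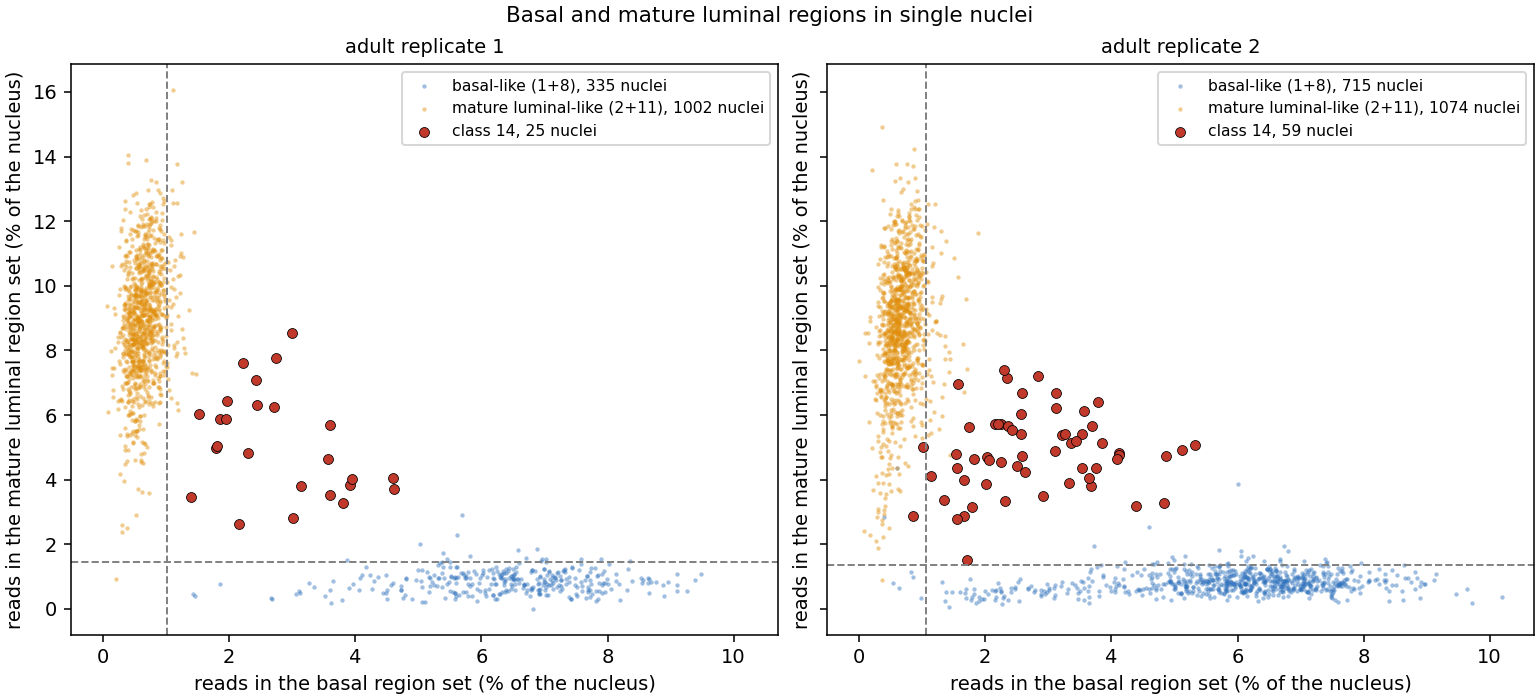
Share of reads of each nucleus in the basal set (%, x axis) and in the mature luminal set (%, y axis), by adult library, for class 14, basal-like and mature luminal-like nuclei. Class 14 nuclei fill the space between the other groups, with median basal shares of 2.71% and 2.57% and median mature luminal shares of 4.96% and 4.78%.

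Stretches of DNA covered by many reads of 1 barcode were counted wherever they lay, without use of the region sets. The count is not independent of lineage, since regions that gather many reads can differ between the groups. With nuclei thinned to 4000 reads and shallower ones left out, class 14 nuclei had a mean of 4.70 stretches with at least 5 overlapping reads in replicate 1 (23 nuclei, 2 left out) and 3.62 in replicate 2 (50 nuclei, 9 left out). Basal-like nuclei had 3.64 and 2.74, and mature luminal-like nuclei 10.4 and 7.45. These means of class 14 lay between those of the references in each library. So did those of luminal progenitor-like (6.19 and 5.35) and class 10 nuclei (7.18 and 4.47), so this is not particular to class 14. A region that gathered many reads, at chr17:39844166-39845165 and described below, had the same order of groups in each library. Its level was highest in mature luminal-like, lower in class 14 and lowest in basal-like nuclei. How far such regions set the order of the means was not tested. The medians did not separate class 14 from basal-like nuclei in replicate 1 (2 in each), and were 2 and 1 in replicate 2, against 10 and 5 in mature luminal-like nuclei. With no thinning the order turned: class 14 had means of 21.6 and 22.1, above the 8.32 and 8.83 of basal-like and the 15.8 and 19.0 of mature luminal-like nuclei. Class 10 stood higher still, at 25.5 and 27.7. Both ends of a fragment are listed as separate reads, so a single fragment can add up to 2 reads to such a depth.

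Scores of lineage motifs also lay between the references. A motif score of this kind says how far the accessibility of regions holding the motif departs, in a nucleus, from what the depth and background predict. The Trp63 motif, bound by the basal factor p63, had a mean score of 1.24 and 1.11 in class 14, 3.48 and 3.33 in basal-like nuclei and -1.02 and -1.11 in mature luminal-like nuclei. Class 14 differed from the basal-like score by -2.23 (SE 0.0780, limma adjusted p 2.91e-06) and from the mature luminal-like score by 2.23 (SE 0.0780, limma adjusted p 2.91e-06). The Foxa1 motif, bound by the luminal pioneer factor, had scores of 1.67 and 1.52 in class 14, -2.13 and -2.30 in basal-like nuclei and 3.82 and 4.36 in mature luminal-like nuclei. Class 14 stood 3.81 above the basal-like score (SE 0.173, limma adjusted p 3.54e-06) and differed from the mature luminal-like score by -2.49 (SE 0.173, limma adjusted p 4.11e-05). The groups did not overlap for either motif.

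Over all 427 motif columns, 388 of them distinct, class 14 was higher than basal-like nuclei in 116 (27.2%) and lower in 90 (21.1%), and higher than mature luminal-like nuclei in 62 (14.5%) and lower in 111 (26%). Against luminal progenitor-like nuclei 89 (20.8%) were higher and 102 (23.9%) lower. The references differed by at least 1 in 63 distinct motifs. Class 14 lay between them in both libraries for 59 of these, and 54 were called against both references. The median position on the way from mature luminal-like to basal-like was 39.6% and 44.5%. The exceptions were Bach1, Batf, Fos and Fosb, motifs of AP-1 and its relatives. Fos had scores of 2.48 and 1.67 in class 14 and 2.45 and 3.13 in mature luminal-like nuclei, so only replicate 1 was above its mature luminal-like partner.

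Of 30 motifs listed for this tissue, 28 were in the table and 13 were called against both references, as were 122 of all 427 columns (28.6%). All 13 lay between, as did 117 of the 122. Of the 13, Tead4, Jun and Zeb1 lost their call against mature luminal-like nuclei when medians replaced means over nuclei. Tead4 also differed between the class 14 libraries (-0.46 and 0.27). By library means 25 of the 28 lay between, beside 315 of the 427. The exceptions were Elf5 and Ehf, ETS motifs at which class 14 lay below both references in each library, and Nfkb1. Elf5 scored -1.32 and -1.03 in class 14, -0.96 and -0.92 in basal-like and -0.63 and -0.78 in mature luminal-like nuclei (limma adjusted p 0.138 and 0.0207). On the basal side, higher in basal-like than in mature luminal-like nuclei, were Nfic and Nfib, of the nuclear factor I family, Cebpb and Tead4. Sox9, a stem and progenitor regulator, and Lef1, a mediator of Wnt signals, were also on this side. Mean scores in luminal progenitor-like and basal-like nuclei were 0.44 and 0.43 for Nfib, 0.62 and 0.62 for Cebpb and 0.52 and 0.77 for Nfic. For Tead4 they were 0.48 and 0.87, for Sox9 0.05 and 0.25 and for Lef1 -0.28 and 0.42. Nfib and Cebpb thus did not set basal-like apart from progenitor-like nuclei. Sox9 scored -0.62 and -0.83 in class 14, against 0.21 and 0.29 in basal-like and -1.42 and -1.47 in mature luminal-like nuclei. On the mature luminal side were Esr1 (the estrogen receptor), Jun, Snai2, Zeb1 and Ctcf. Esr1 scored 0.34 and 0.26 in class 14, against -0.35 and -0.42 in basal-like and 0.68 and 0.88 in mature luminal-like nuclei. Mean scores in luminal progenitor-like nuclei were 0.26 for Esr1, 0.18 for Zeb1, 0.33 for Snai2, -0.15 for Ctcf and -0.24 for Jun. All but Jun thus lay between the references there too. Class 10 lay between for Foxa1 (1.88 and 2.68) and Nfic (-0.94 and -1.01). For Trp63 (-1.35 and -1.38) and Snai2 (0.73 and 0.90) it did not. Lying between is thus not particular to class 14 at several motifs. The Snai2 and Zeb1 motifs are shared by several factors that bind E-boxes, so these scores do not name the factor bound.

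Limma called no motif higher than both references (0%), and 0 had an unadjusted p under 0.05 with a higher score in both contrasts. The nearest were Tcf7, Smad1 with Smad5, and Atf6 with Atf6b, none called against both. Class 14 exceeded the basal-like score by 0.21 and the mature luminal-like score by 0.17 for Tcf7 (limma adjusted p 0.0513 and 0.101). Lower than both were 5 columns (1.17%): Elf3, Nfya, Pax3, Tfdp1 and Tfdp2, the last pair with identical scores. Nfya, a subunit of a factor that binds CCAAT boxes in promoters, showed the largest of these differences from the basal-like score, -0.64 (SE 0.0729, limma adjusted p 0.000384), with -0.27 against mature luminal-like nuclei (SE 0.0729, limma adjusted p 0.0247). None of the 5 was called against both when medians replaced means over nuclei.

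**Figure D3:**
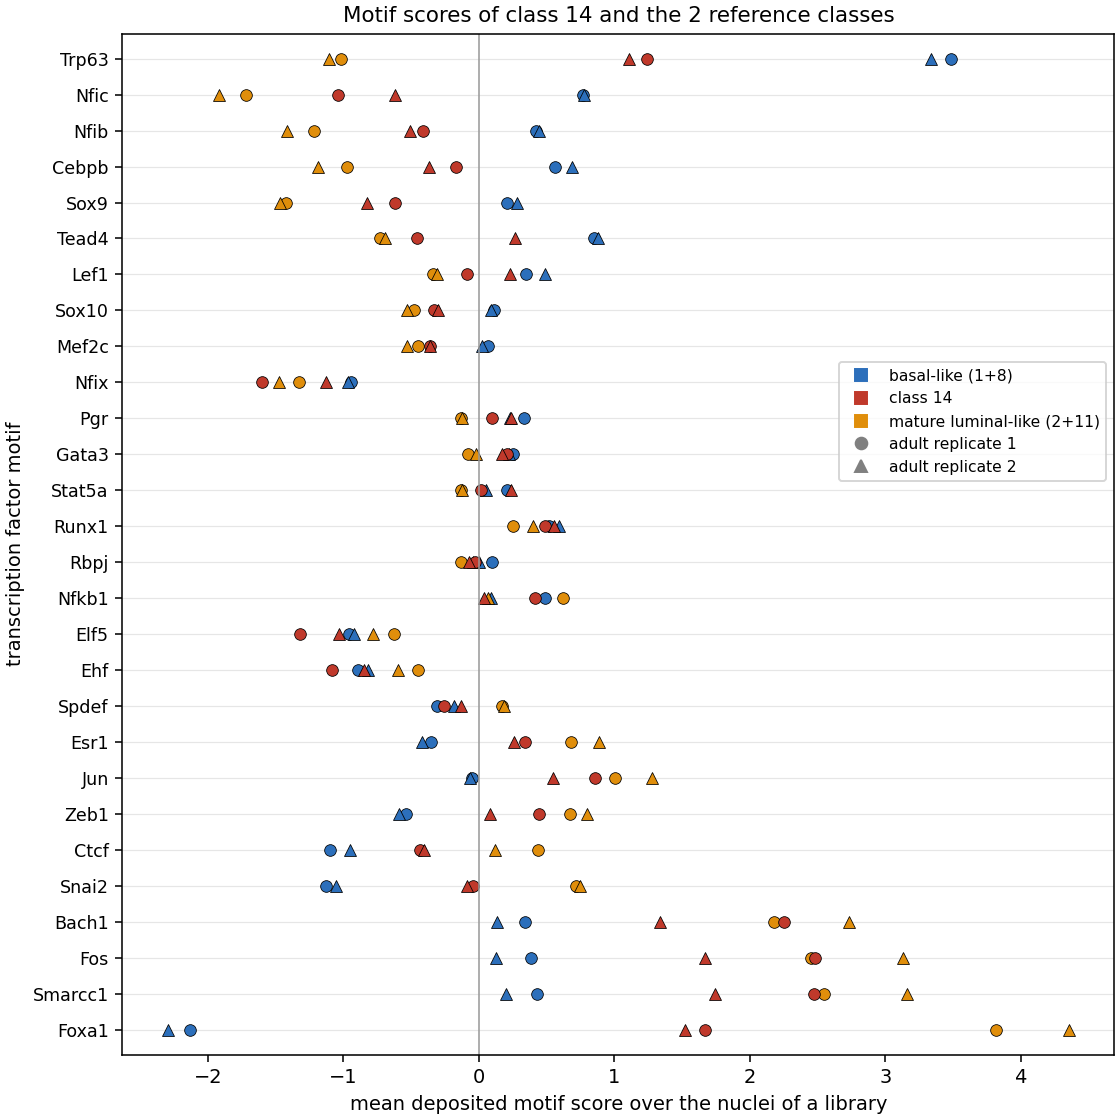
Mean deposited motif score over the nuclei of a library (x axis, score with no unit) for the listed motifs (y axis), in class 14, basal-like and mature luminal-like nuclei. Circles are replicate 1 and triangles replicate 2. For Trp63 and Foxa1 class 14 lies at 1.24 and 1.11 and at 1.67 and 1.52, between well separated references, while for Runx1 and Rbpj the groups lie close together.

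Part of the single nuclei also exceeded the cuts of both the Trp63 and the Foxa1 motif, 1 of 3 motif pairs counted. With cuts at the 95th percentile of the opposite lineage, 11 of 25 class 14 nuclei (44%) and 30 of 59 (50.8%) exceeded both the Trp63 and the Foxa1 cut. Basal-like nuclei did in 16 of 335 (4.78%) and 29 of 715 (4.06%), mature luminal-like nuclei in 51 of 1002 and 54 of 1074, and class 10 nuclei in 2 of 82 and 2 of 61. The other pairs gave smaller shares. For Sox9 with Foxa1 it was 6 class 14 nuclei (24%) and 7 (11.9%), beside 11.0% and 13.1% of class 10 and 9.99% and 12.2% of luminal progenitor-like nuclei, so in replicate 2 class 14 was not above these groups. For Trp63 with Esr1 it was 3 nuclei (12%) and 6 (10.2%), beside 5.07% and 4.48% of basal-like and 1.80% and 1.40% of mature luminal-like nuclei. The cuts are the reference percentiles themselves, and the region sets and motif scores come from the same reads.

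At genes, reads were counted over each gene's span extended by 2000 bases on either side and are given as reads per 1000000 reads of the nuclei (RPM). Of 17070 spans tested, class 14 was called higher than basal-like nuclei in 426 (2.5%) and lower in 526 (3.08%), and higher than mature luminal-like nuclei in 480 (2.81%) and lower in 186 (1.09%). Against luminal progenitor-like nuclei 805 (4.72%) were higher and 611 (3.58%) lower. Median log2 fold changes over all spans were -0.06, -0.05 and -0.03 for these 3 contrasts. All gene calls are from edgeR's quasi-likelihood test, with library as a block and Benjamini-Hochberg adjusted p under 0.05 over all spans.

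Basal markers were accessible in class 14, many at a lower level than in basal-like nuclei. Of 15 basal or myoepithelial genes, 8 were called lower than in basal-like nuclei (median log2 fold change -0.995 over the list) and 11 higher than in mature luminal-like nuclei (median 1.36), with none called the other way. In 12 of 15 the mean of the libraries' levels lay between those of the references, and likewise with pooled reads. Of all 17070 spans 6485 lay between by means and 6882 by pooled reads.

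Krt5, a keratin of basal cells (gene at chr15:101707069-101712905, GRCm38.p6), had 22.9 and 27.3 RPM in class 14, from 6 and 16 reads in 2 and 5 nuclei. Basal-like nuclei had 65.0 and 62.1 and mature luminal-like nuclei 0.696 and 1.47. Class 14 thus lay apart from both. Against mature luminal-like nuclei it was higher by 4.52 on the log2 scale (SE 0.633, edgeR adjusted p 3.51e-06). Against basal-like nuclei it was -1.36 (SE 0.426, edgeR adjusted p 0.0479), a call kept under only 3 of 12 alternatives.

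Krt14, the partner keratin of Krt5, had 38.1 and 37.6 RPM in class 14, 103.4 and 57.6 in basal-like and 3.13 and 2.93 in mature luminal-like nuclei. The log2 fold change was 3.73 against mature luminal-like nuclei (SE 0.467, edgeR adjusted p 5.12e-07) and -1.04 against basal-like nuclei (SE 0.345, edgeR adjusted p 0.0654, not called). Trp63, which encodes p63, had 125.8 and 117.8 RPM in class 14, 247.0 and 210.5 in basal-like and 29.1 and 32.4 in mature luminal-like nuclei. It differed by -0.995 (SE 0.196, edgeR adjusted p 0.000923) and by 2.01 (SE 0.224, edgeR adjusted p 4.19e-08) on the log2 scale. Acta2, the smooth muscle actin of myoepithelial contraction, had 38.1 and 42.7 RPM against 99.7 and 106.6 in basal-like and 9.23 and 8.92 in mature luminal-like nuclei. All 4 genes kept the same order of groups in both libraries.

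Not every basal gene stood between. By means, Igfbp5 lay above both references and 2 genes of the list, Cnn1 among them, lay below both. Cnn1, the contractile regulator calponin, had 0 and 2 reads in class 14 (0 and 3.41 RPM), against 42.1 and 34.3 in basal-like and 4.53 and 4.03 in mature luminal-like nuclei. It fell by 4.07 on the log2 scale against basal-like nuclei (SE 0.808, edgeR adjusted p 0.000993) and was not called against mature luminal-like nuclei (log2 fold change -0.80, edgeR adjusted p 0.779). Sox10, listed with Wnt targets and stem-like genes and present in both basal-like and progenitor-like nuclei here, had 7.62 and 8.54 RPM in class 14. Basal-like nuclei had 54.5 and 43.3, luminal progenitor-like nuclei 72.2 and 77.4 and mature luminal-like nuclei 8.18 and 4.89. Sox10 fell by 2.59 against basal-like nuclei (SE 0.496, edgeR adjusted p 0.000665). In class 14 Cnn1 thus lay below the mature luminal-like level in both libraries, and Sox10 overlapped it, on few reads.

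Several markers of mature luminal cells were more accessible in class 14 than in basal-like nuclei. Of 12 such genes 5 were called higher than in basal-like nuclei (Esr1, Pgr, Prlr, Foxa1 and Areg; list median 0.71) and none lower. Against mature luminal-like nuclei none was higher and 1 (Spdef) was lower (list median -0.48). By the mean of the libraries' levels 8 of the 12 lay between the references, 2 above both (Cited1 and Wnt4) and 2 below both (Tnfsf11 and Ly6a). Ly6a, the gene of the surface protein Sca-1, had 7.62 and 3.41 RPM in class 14 (2 and 2 reads), 14.9 and 7.26 in basal-like and 13.1 and 16.4 in mature luminal-like nuclei, and was not called. Pgr, the progesterone receptor, had 133.4 and 157.1 RPM in class 14, 37.8 and 48.6 in basal-like and 188.7 and 188.0 in mature luminal-like nuclei. It was higher than in basal-like nuclei by 1.66 on the log2 scale (SE 0.218, edgeR adjusted p 4.33e-06), and against mature luminal-like nuclei it was -0.33 (SE 0.189, edgeR adjusted p 0.382). The call against basal-like nuclei held under all 12 alternatives for Pgr and for Foxa1, 11 for Prlr and Areg and 9 for Esr1. That of Esr1 was lost without the library block, with promoter-poor references and with nuclei counted.

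Esr1, the estrogen receptor, had 190.6 and 196.3 RPM in class 14, 104.6 and 114.1 in basal-like and 211.3 and 240.0 in mature luminal-like nuclei. The log2 fold change against basal-like nuclei was 0.73 (SE 0.177, edgeR adjusted p 0.00831). Prlr, the prolactin receptor, had 148.6 and 150.2 RPM, against 43.3 and 48.3 in basal-like and 224.4 and 207.8 in mature luminal-like nuclei. Areg, the EGF family ligand that estrogen induces in the gland, differed between the libraries of class 14: 106.7 and 30.7 RPM, with 80.6 and 82.1 in mature luminal-like nuclei. Spdef, an ETS factor of luminal cells, stood low with 15.2 and 11.9, near the 9.91 and 10.8 of basal-like nuclei, and fell by 1.91 against the 58.1 and 46.6 of mature luminal-like nuclei (SE 0.438, edgeR adjusted p 0.00557).

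**Figure D4:**
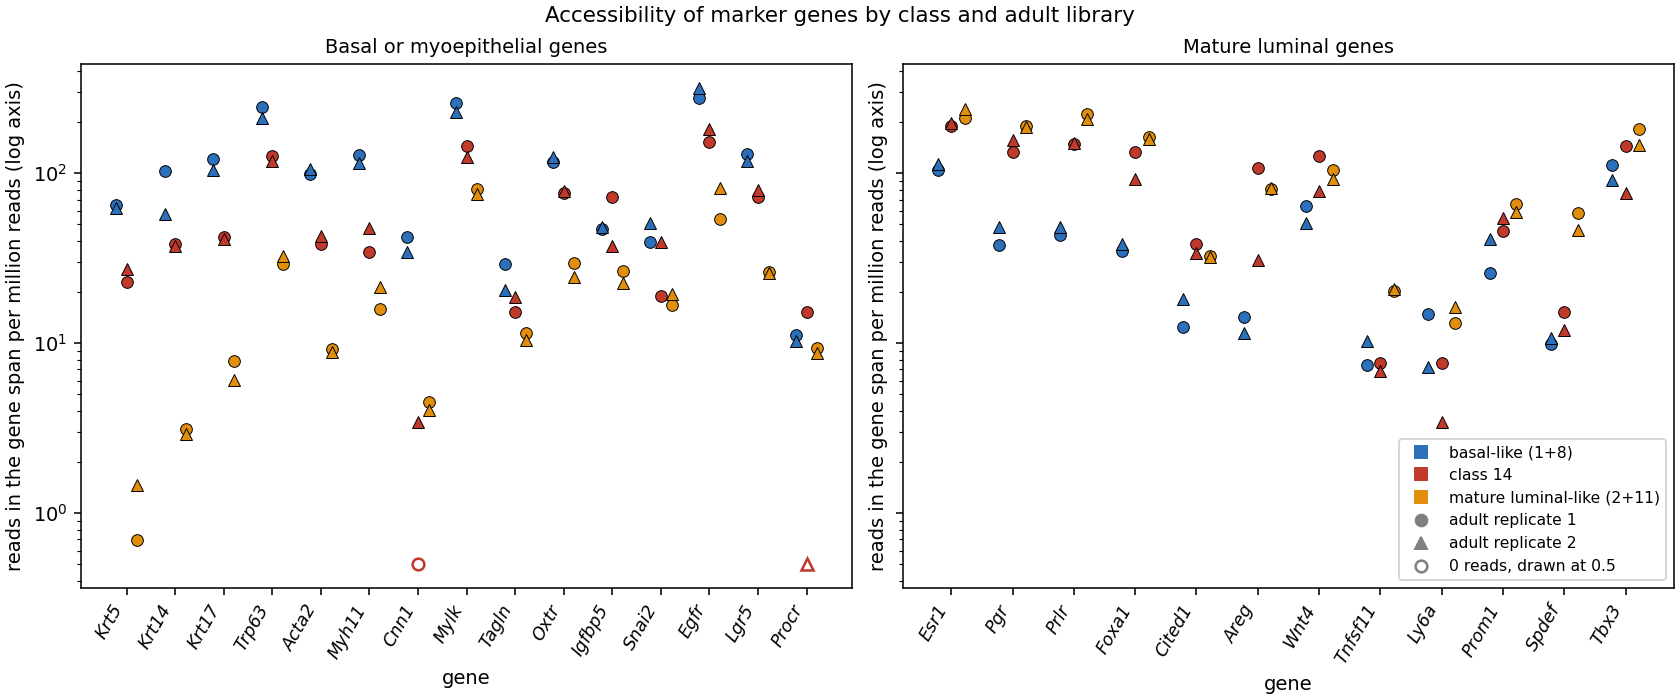
Accessibility in RPM (y axis, log scale) over gene spans (x axis) of basal and mature luminal markers in class 14, basal-like and mature luminal-like nuclei; each point is an adult library, and open points drawn at 0.5 had no read. Class 14 lies between the references for Krt5 (22.9 and 27.3) and Pgr (133.4 and 157.1), and below both for Cnn1 (0 and 3.41).

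Part of the luminal progenitor and alveolar list was lower in class 14 than in progenitor-like nuclei. Of 12 listed genes 11 were tested. Against luminal progenitor-like nuclei 4 were lower (Kit, Elf5, Ehf and Csn3, list median -1.15) and none higher. By the mean of the libraries' levels 5 of the 11 lay between basal-like and mature luminal-like nuclei and 2 below both. Above both were 4 (Kit, Aldh1a3, Cd14 and Lbp), beside 4850 of all 17070 spans, and none of the list was called against mature luminal-like nuclei. Ehf, an ETS factor of luminal cells, was the 1 gene called higher than in basal-like nuclei, a call lost under 6 of 12 alternatives. Kit, the stem cell factor receptor, had 34.3 and 6.83 RPM in class 14 (9 and 4 reads) against 138.5 and 139.8 in luminal progenitor-like nuclei. Elf5, the alveolar master regulator, had 0 and 30.7 against 59.9 and 63.0. The libraries of class 14 differed for both genes, though each lay below the progenitor-like levels.

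Keratins shared by all luminal cells were measured as well. Krt8 had 87.7 and 66.6 RPM in class 14, 35.3 and 44.6 in basal-like and 139.4 and 115.5 in mature luminal-like nuclei. Krt7 had 30.5 and 83.6 against 22.9 and 15.0 and against 141.4 and 113.2. Krt18, the partner of Krt8, had no read in replicate 1 and 17 in replicate 2 (0 and 29.0 RPM), against 13.6 and 8.76 in basal-like and 55.0 and 47.1 in mature luminal-like nuclei. It thus lay below both references in replicate 1 and between them in replicate 2, and was not called. Of the 5 genes in this list 2 (Krt19 and Krt7) were called higher than in basal-like nuclei, and 1 (Krt7) lower than in mature luminal-like nuclei, the latter call being kept under 3 of 12 alternatives.

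Over all listed marker genes in which the references differed at least 2-fold, 20 were higher in basal-like nuclei. In 18 of these class 14 lay between, at a median of 41.9% of the way from mature luminal-like to basal-like (quartiles 33.0% and 49.9%). The exceptions were Cnn1 (-5.82%) and Pdgfrb, a receptor of pericytes and fibroblasts (178%). Of 13 genes higher in mature luminal-like nuclei 12 lay between, at a median of 59.7% of the way from basal-like to mature luminal-like (quartiles 37.4% and 69.1%). The exception was Tnfsf11, the RANKL gene that responds to progesterone (-21.3%). Among all spans with such a difference between the references, 852 of 1002 higher in basal-like nuclei lay between (85.0%, median 40.7% of the way) and 914 of 1170 higher in mature luminal-like nuclei (78.1%, median 51.1%).

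Markers of cells outside the epithelium and of dividing cells were listed too. Of 8 stromal genes tested none was called against basal-like nuclei, and 1 (Pdgfrb) was higher than in mature luminal-like nuclei. The summed level of the stromal list was 175.3 and 157.1 RPM in class 14, 175.8 and 171.0 in basal-like and 116.3 and 122.1 in mature luminal-like nuclei. Among 5 endothelial genes none was called against basal-like and 1 (Emcn) was higher than in mature luminal-like nuclei, with summed levels of 148.6 and 87.1 in class 14, 138.1 and 130.4 in basal-like and 108.6 and 94.2 in mature luminal-like nuclei. No gene of the immune list (5 of 6 tested) or of the list for dividing cells (5 tested) was called against either reference. The immune gene nearest to a call was Cd79a, a chain of the B cell receptor, with 22.9 and 27.3 RPM in class 14 from 6 and 16 reads in 3 and 7 nuclei. That lay above the 4.95 and 8.76 RPM of basal-like and the 11.0 and 11.0 of mature luminal-like nuclei. Its log2 fold change against basal-like nuclei was 1.72 (SE 0.557, edgeR adjusted p 0.0566). It was called there by DESeq2 (adjusted p 0.0410), by edgeR with scaling by total reads (adjusted p 0.0470) and under both looser filters. Immune genes summed to 133.4 and 76.8 RPM in class 14, beside 89.8 and 100.4 in basal-like and 121.9 and 102.7 in mature luminal-like nuclei. No gene of these 4 lists was at 0 in both class 14 libraries.

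Wnt and Notch genes were also measured. Of 8 Wnt targets and stem-like genes, 4 were lower than in basal-like nuclei (Lgr4, Lgr6, Sox10 and Bcl11b) and 3 higher than in mature luminal-like nuclei (Lgr4, Lgr6 and Bcl11b). The Bcl11b call against basal-like nuclei was kept under 4 of 12 alternatives and lost with DESeq2 (adjusted p 0.0813), and the Lgr4 call against mature luminal-like nuclei was kept under 8. Lgr6, an R-spondin receptor, had 87.7 and 92.2 RPM in class 14, 180.8 and 136.7 in basal-like and 29.6 and 26.5 in mature luminal-like nuclei. By the mean of the libraries' levels 6 of these 8 lay between the references, and by pooled reads all 8. Of 9 Notch pathway genes 3 lay between, 1 above both and 5 below both by means, but 6 between, 0 above and 3 below by pooled reads. The ligands Jag2 and Dll1 were lower than in basal-like nuclei and the receptor Notch3 higher. Dll1 had 61.0 and 44.4 RPM, between 114.5 and 82.6 in basal-like and 17.8 and 15.5 in mature luminal-like nuclei, and its call against basal-like nuclei was kept under 7 of 12 alternatives and lost with DESeq2 (adjusted p 0.0518). Notch3 had 106.7 and 49.5, against 22.3 and 27.3 in basal-like and 84.1 and 70.9 in mature luminal-like nuclei. The Notch target Hes1 was lower than in mature luminal-like nuclei, a call kept under 5 of 12 alternatives.

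At promoter regions, few differences could be called. Of 13640 tested, 56 (0.411%) were higher and 25 (0.183%) lower than in basal-like nuclei, and 60 (0.44%) higher and 23 (0.169%) lower than in mature luminal-like nuclei. Among the marker genes Krt14 and Egfr were the only ones with a promoter region called. The Krt14 region (chr11:100205316-100206315) had 3 and 8 reads in class 14, 41 and 43 in basal-like and 4 and 7 in mature luminal-like nuclei, and was higher than in mature luminal-like nuclei by 4.00 on the log2 scale (SE 0.916, edgeR adjusted p 0.0103). The region of Egfr, the receptor for EGF ligands such as amphiregulin, lies at chr11:16751625-16752624. It had 8 and 10 reads in class 14, 33 and 81 in basal-like and 15 and 25 in mature luminal-like nuclei, and exceeded mature luminal-like nuclei by 2.88 on the log2 scale (SE 0.580, edgeR adjusted p 0.00180). Neither was called against basal-like nuclei. The Egfr region was no lower in luminal progenitor-like nuclei (29.0 and 24.1 RPM) than in basal-like nuclei (20.4 and 20.3), so it is not particular to basal nuclei.

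The RefSeq promoter sequences inside the Krt14 and Egfr regions are shown because both regions were called higher than in mature luminal-like nuclei. That of Krt8 is shown beside them as a luminal gene (class 14 reads of 6 and 10 in its region, not called). The table gives 1 start for Krt14, which lies inside the annotated gene (chr11:100203162-100207510) and not at its outer end, as does the deposited region. Each runs 5′ to 3′ on the strand of the gene from 250 bases before to 50 after its start, in GRCm38.p6: Krt14 at chr11:100205981-100206280 on the minus strand, Egfr at chr11:16751953-16752252 on the plus strand and Krt8 at chr15:102004293-102004592 on the minus strand. Capitals mark matches to 4 motifs searched on both strands: AP-1 (TGANTCA), forkhead (TGTTTAC), TEAD (GGAATG) and the core site of the estrogen receptor (AGGTCA).
Krt14: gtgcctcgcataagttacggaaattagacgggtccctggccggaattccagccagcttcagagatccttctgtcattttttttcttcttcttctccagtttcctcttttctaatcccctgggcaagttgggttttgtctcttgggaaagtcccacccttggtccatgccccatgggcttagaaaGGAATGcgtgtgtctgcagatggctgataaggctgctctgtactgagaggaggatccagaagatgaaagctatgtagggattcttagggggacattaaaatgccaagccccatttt
Egfr: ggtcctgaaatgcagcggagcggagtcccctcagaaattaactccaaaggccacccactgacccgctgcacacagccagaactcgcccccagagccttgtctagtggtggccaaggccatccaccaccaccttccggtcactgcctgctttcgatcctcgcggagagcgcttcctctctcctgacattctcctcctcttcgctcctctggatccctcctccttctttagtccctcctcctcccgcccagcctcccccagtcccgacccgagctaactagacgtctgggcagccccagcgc
Krt8: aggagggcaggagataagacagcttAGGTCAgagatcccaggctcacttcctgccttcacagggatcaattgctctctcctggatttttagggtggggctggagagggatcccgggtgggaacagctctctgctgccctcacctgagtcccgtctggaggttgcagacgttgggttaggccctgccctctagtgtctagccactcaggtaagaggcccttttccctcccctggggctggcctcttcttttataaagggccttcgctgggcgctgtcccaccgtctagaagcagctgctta
The Krt14 sequence, which lies inside the gene, held 1 TEAD match, the Krt8 sequence 1 core site match, and the Egfr sequence no match of the 4. Of 32817 distinct RefSeq promoters of this length, 14.7% hold the TEAD letters, 16.3% the core site, 7.81% the AP-1 letters and 3.65% the forkhead letters. A match is a description of the letters and not a bound site.

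Few regions were called higher in class 14 than in both references, and the number moved with the scaling. Of 42223 distal regions tested with edgeR and TMM scaling, class 14 was called higher than basal-like nuclei in 1707 (4.04%) and lower in 2590 (6.13%), and higher than mature luminal-like nuclei in 1161 (2.75%) and lower in 1306 (3.09%). Higher than both was 0 (0%), with 7 at an unadjusted p under 0.05 in both contrasts. DESeq2 called 10, with 90 at an unadjusted p under 0.05 in both contrasts. With scaling by total reads edgeR called 6 (0.0142%), with 147 at such an unadjusted p. Lower than both was 224 (0.531%), of which 87 had no class 14 read, 124 at most 3 reads and 148 no read in 1 or more of the class 14 libraries. Scaling by total reads left 26 (0.0616%) lower than both. At promoter regions 0 were higher than both (93 at unadjusted p under 0.05; DESeq2 0) and 4 lower (0.0293%).

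Counts in distal regions were sparse in class 14, and the scaling changed the calls. No read fell in 47.6% of the tested regions in replicate 1 and in 26.7% in replicate 2, against 18.5% and 9.00% in the basal-like sums. TMM gave class 14 factors of 1.71 and 1.24 and the other sums 0.853 to 0.934. The median log2 fold change was -0.64 against basal-like and -0.82 against mature luminal-like nuclei with TMM, and -0.00 and -0.25 with total reads. With total reads the calls were 2862 (6.78%) higher and 574 (1.36%) lower against basal-like nuclei, and 1626 (3.85%) higher and 229 (0.542%) lower against mature luminal-like nuclei. The split of higher and lower calls thus turned with the scaling.

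Across the 13 alternative fits, 14 distal regions were called higher than both references at least once. In 2 of them, called only with promoter-poor references, class 14 lay between the main references. One is near Axin2. The other, at chr17:39844166-39845165, lies 105355 bases from Esp38, the nearest protein-coding gene. Genes of other kinds were not looked up. It had 2843 and 2305 RPM in class 14, 1876 and 1506 in basal-like and 4870 and 3711 in mature luminal-like nuclei. Its reads came from 24 and 58 class 14, 278 and 543 basal-like and 972 and 994 mature luminal-like nuclei. Whether they map to 1 place only was not tested. The region called most often, under 4 alternatives, lies at chr16:76242439-76243438, 43965 bases from Nrip1, a co-repressor of nuclear receptors. It had 19 and 24 reads in class 14, from 8 and 10 nuclei, which is 72.4 and 41.0 RPM. Basal-like nuclei had 18.6 and 18.8 and mature luminal-like nuclei 14.8 and 14.9. With scaling by total reads the log2 fold changes were 1.49 (SE 0.391, edgeR adjusted p 0.00548) and 1.83 (SE 0.380, edgeR adjusted p 0.000178).

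A region within Gpx4, a gene for a peroxidase that protects lipids (chr10:80052969-80053968), was called under 3 alternatives, with 21 and 23 reads from 8 and 7 nuclei. That was 80.0 and 39.3 RPM, beside 18.6 and 19.0 in basal-like and 21.8 and 20.2 in mature luminal-like nuclei. A region within Pacsin2 (chr15:83417101-83418100) was also called under 3, with 14 and 14 reads from 7 and 6 nuclei. The region nearest to a call by the main fit, within Farp1 (chr14:121104285-121105284), had 9 and 7 reads from 4 and 2 nuclei, beside 6 and 10 in basal-like and 17 and 39 in mature luminal-like nuclei. In all 4 regions replicate 1 of class 14 lay above replicate 2 in RPM, and the reads came from a minority of the nuclei.

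Gene spans gave 7 called higher than both references (0.041%) and 30 lower (0.176%). These counts moved with the setting: higher and lower than both were 1 and 4 without the library block, 6 and 6 by DESeq2, 57 and 21 with promoter-rich references, and 0 and 3 with promoter-poor references. In 4 of the 7 the class 14 libraries did not overlap the references. Vps13c, a lipid transfer protein gene, had 76.2 and 83.6 RPM in class 14, against 35.9 and 34.8 in basal-like and 26.6 and 22 in mature luminal-like nuclei. The log2 fold changes were 1.12 (SE 0.291, edgeR adjusted p 0.0138) and 1.81 (SE 0.288, edgeR adjusted p 3.76e-05), and both calls held under 10 of 12 alternatives. Its 20 and 49 reads came from 6 and 11 nuclei.

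Nubpl, which encodes an assembly factor of mitochondrial complex I, had 53.4 and 58.0 RPM against 18.6 and 22.8 and against 15.7 and 21.5. The log2 fold changes were 1.33 (SE 0.359, edgeR adjusted p 0.0198) and 1.62 (SE 0.346, edgeR adjusted p 0.00240), on 14 and 34 reads from 6 and 11 nuclei, and held under 9 alternatives. Hrh1, the histamine H1 receptor, had 68.6 and 64.9 RPM against 27.9 and 23.0 and against 31.5 and 34.6. Tex30 had 68.6 and 66.6, against 32.2 and 32.0 and against 32.4 and 36.5. Both were called under 6 of 12 alternatives. None of the 4 remained called higher than both when nuclei with a read were counted in place of reads, a setting added after the data were seen, with reference nuclei in the depth range of class 14, that called 0 spans, or with the promoter-poor reference classes (8, 11 and 3), which also called 0.

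Of the other 3 spans, Aass rested on replicate 2. It had 0 reads in replicate 1 and 74 in replicate 2, the latter from 6 nuclei. Without replicate 2 its log2 fold changes were -5.26 and -3.91. Such values from 1 library are ratios of TMM-scaled levels with 1 added to each. With 0 reads, the 1 added sets their size. Cntn6 had 22.9 and 129.7 RPM in class 14 (6 and 76 reads), 21.7 and 56.8 in basal-like and 16.5 and 35.9 in mature luminal-like nuclei. Kcnip4 had 91.5 and 303.9 RPM (24 and 178 reads), 63.8 and 180.2 in basal-like and 100.1 and 146.8 in mature luminal-like nuclei. For both genes replicate 2 was higher in every group, so the levels overlapped across libraries. In RPM within libraries Cntn6 exceeded both references in each, by little in replicate 1, while Kcnip4 exceeded mature luminal-like nuclei in replicate 2 only. Without replicate 2 the log2 fold change of TMM-scaled levels was -0.0567 for Cntn6 against basal-like and -0.11 for Kcnip4 against mature luminal-like nuclei. The sign for Cntn6 in replicate 1 thus turned with the scaling.

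Among spans lower than both, Tmem161a, Vps33a, Gm11639, Sv2a, Fbxo41 and Kbtbd6 had no read in class 14. With 3 fragments over both libraries, which the lists hold as 6 reads, as the limit that a count of 0 allows, Tmem161a was at least 2.65-fold lower than in basal-like and at least 2.13-fold lower than in mature luminal-like nuclei. The others were at least 1.44-fold to at least 2.42-fold lower than basal-like nuclei. Such a limit holds for a feature fixed beforehand. These spans were picked for their falls among 17070, and the features given with such limits below were picked likewise. A count of 0 can then arise by sampling at a smaller fall, so the limits are not sure bounds. Calls against both held under 10 of 12 alternatives for Tmem161a, 8 for Vps33a and Gm11639, 7 for Sv2a and 5 for Fbxo41. The Kbtbd6 call against mature luminal-like nuclei was kept under 4 of 11. With DESeq2 Gm11639, Sv2a, Fbxo41 and Kbtbd6 were not called against both. Vps33a encodes a subunit of the complexes that tether lysosomal membranes, and Sv2a a synaptic vesicle protein.

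Among distal regions lower than both, a region within Notch2, a receptor of the Notch pathway (chr3:98098255-98099254), was the one of the 10 named that was called under all 13 alternatives. It had no read in either class 14 library, 30 and 57 in basal-like and 114 and 135 in mature luminal-like nuclei. By the limit used above it was at least 2.19-fold and at least 2.53-fold lower. The promoter region of Clasp1, a microtubule plus-end protein, had 4 and 2 reads in class 14, 68 and 216 in basal-like and 259 and 391 in mature luminal-like nuclei. It fell by 2.89 (edgeR adjusted p 0.000140) and 2.74 (edgeR adjusted p 0.000415) on the log2 scale, and 11 of 13 alternatives called it. Promoter regions of Babam1, Cgrrf1 and of Naa60 with Zfp597 were the others, each with at most 4 reads in class 14. They were called under 8, 2 and 6 of 13 alternatives, and DESeq2 called none of them.

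The largest single contrasts named by the same rule were lineage genes and sparse spans. Higher than in mature luminal-like nuclei were Krt5, Gm21083, Il17b, Izumo1r and Krt14. Il17b, a secreted cytokine gene, had 7 and 12 reads in class 14, 140 and 250 in basal-like and 2 and 17 in mature luminal-like nuclei. Higher than in basal-like nuclei were Bhmt, Mobp, Prlh, Calcb and Hp, each with at most 4 reads in the pooled basal-like nuclei. Prlh, a prolactin-releasing peptide gene, had 2 and 20 reads in class 14, 0 and 4 in basal-like and 235 and 320 in mature luminal-like nuclei. Slc24a1, an ion exchanger gene, had no class 14 read, with 76 and 95 in basal-like and 69 and 58 in mature luminal-like nuclei. By the limit used above it was at least 4.31-fold lower than in basal-like nuclei. The single nuclei behind these sums were few: the spans of Bhmt and Mobp were read in 4 and 2 class 14 nuclei each.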

How the data were processed

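Per the labels, nuclei of sorted EpCAM+ Lin- mammary cells were tagmented in wells with barcoded Tn5 and sequenced. The deposited read lists give each read's position and barcode, and the authors' class and motif score per nucleus come from a deposited score table; the score has no unit. Bowtie2, MACS2, bedtools and mm10 are listed, with no role, in the submitters' processing notes. Duplicate removal and the shift of cut sites are not given in the sources used here.

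Reads of the deposited lists were counted over the deposited distal and promoter regions and over RefSeq gene spans (GRCm38.p6) extended by 2000 bases, and these read counts were summed per library and class. The 8 sums (class 14, classes 1 and 8, 2 and 11, 3 and 7, in 2 adult libraries) were fitted with edgeR 4.0.16 (R 4.3.3): TMM scaling, mean of at least 10 reads, quasi-likelihood test, Benjamini-Hochberg adjusted p under 0.05. Library was a block because the sums of a library come from the same nuclei suspension; the pairing comes from the design. Mean motif scores were fitted with limma 3.58.1 in the same way. SE of an edgeR log2 fold change is its size divided by the square root of F. P-values are set against the residual spread of the 8 sums after library differences are removed. They do not measure the spread of class 14 alone between its 2 libraries. Scripts used Python 3.11.15, numpy 2.4.6, pandas 2.3.3 and scipy 1.17.1, and were tested on simulated data. Alternatives were DESeq2 1.42.0, other scalings and filters, read midpoints, other reference nuclei, fewer classes in the fit and no block. One more, nuclei with a read (for gene spans with reference nuclei between the 10th and 90th percentile of class 14 depth), was chosen after seeing the data.

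Named features were the 10 with the largest change against both references where the libraries did not overlap, with at least 10 class 14 reads for rises. For gene spans the 5 largest in each single contrast were added. Where none was called, the 5 with the smallest p were taken. All listed markers and motifs were included. Regions called only under an alternative were picked after their values were seen. The members and lists were chosen with earlier results of these data known.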

Additional observations from a re-analysis of the deposited data

How the results depend on the processing

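Class 14 sums 84 nuclei, so depth limits every call at single regions: the median tested distal region had 2 reads in each class 14 library. Counts of calls cannot be recomputed without a library, since 1 library leaves no residual degrees of freedom. The shares, positions, depths and motif positions of each library are given in the report. Called directions reversed in 6 cases, all among spans whose libraries overlapped the references. Values with 1 library left out are ratios of TMM-scaled levels with 1 added to each, not edgeR fold changes. With either adult replicate left out, the log2 fold change of Aass ranged from -5.26 to 2.31 against basal-like and from -3.91 to 3.19 against mature luminal-like nuclei, that of Cntn6 from -0.0567 to 1.13 against basal-like and that of Kcnip4 from -0.11 to 1.11 against mature luminal-like nuclei, the negative values being those without adult replicate 2. Aass gave -0.48 against basal-like nuclei when nuclei with a read were counted (for gene spans among reference nuclei in the depth range), and Kcnip4 -0.15 with promoter-poor references. The cause was not tested. Of 91 called comparisons of named gene spans, 18 kept their call under every alternative run, and of 49 for motifs 34 did.

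Without the library block, which in the main fit pairs the sums of a library, gene calls fell to 396 against basal-like nuclei (main 952) and 294 against mature luminal-like nuclei (main 666), with 1 higher (main 7) and 4 lower (main 30) than both. The block changed no other count by over 1.5 times.

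Distal regions called against basal-like nuclei (main 4297) numbered 2719 with a mean of at least 5 reads, 419 with at least 50, 1113 with no filter, 2677 with references in the depth range of class 14, 2232 with promoter-rich and 574 with promoter-poor references, 2206 without the progenitor-like sums and 1176 with nuclei counted. Against mature luminal-like nuclei (main 2467) there were 124 with at least 50 reads, 1426 in the depth range, 1080 with promoter-rich and 271 with promoter-poor references, 1295 without progenitor-like sums and 394 with nuclei counted. Higher than both (main 0) were 10 with DESeq2, 6 with total reads, and 2 each with at least 50 reads, promoter-poor references and nuclei counted. Lower than both (main 224) were 71 with DESeq2, 26 with total reads, 72 with DESeq2 size factors, 6 with at least 50 reads, 73 with no filter, 81 by midpoint, 63 in the depth range, 35 with promoter-rich and 5 with promoter-poor references, 31 without progenitor-like sums and 1 with nuclei counted.

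Promoter regions called against basal-like nuclei (main 81) numbered 15 with at least 50 reads, 49 in the depth range, 2 with promoter-poor references, 39 without progenitor-like sums and 23 with nuclei counted; against mature luminal-like nuclei (main 83) the same settings gave 12, 53, 1, 50 and 17. Lower than both (main 4) were 12 with at least 5 reads or no filter, 9 by midpoint, 2 with DESeq2 size factors or in the depth range, 0 with nuclei counted, and 1 each with DESeq2, at least 50 reads, promoter-poor references and without progenitor-like sums. Gene spans called against basal-like nuclei numbered 543 with promoter-poor references and 94 with nuclei counted, and against mature luminal-like nuclei 86 and 93. Higher than both were 12 with at least 5 reads, 57 with promoter-rich references, 2 without progenitor-like sums, and 0 with promoter-poor references or nuclei counted. Lower than both were 6 with DESeq2, 18 with at least 50 reads, 51 with no filter, 17 in the depth range, 3 with promoter-poor references, 15 without progenitor-like sums and 0 with nuclei counted. Motifs lower than both were 0 with medians and 0 with promoter-poor references.

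Region sets drawn from other reference nuclei hold other regions, and the shares of class 14 reads differed between them. In the basal set they were 2.19% in the depth range, 1.94% with promoter-rich and 0.720% with promoter-poor references, 1.64% at a log2 fold change of at least 2 and 2.47% by midpoint; in the mature luminal set 4.30%, 3.67%, 1.497%, 3.54% and 4.59%. The progenitor set took 0.549%, 0.494%, 0.0829% and 0.184% under the first 4, and the fetal set 0.655% at the stricter threshold. The position in the basal set (main 38.4%) was 38.0% in the depth range, 31.6% with promoter-rich, 38.0% with promoter-poor references and 38.2% by midpoint, and in the mature luminal set (main 52.1%) 48.0% and 58.8% with promoter-rich and promoter-poor references. Nuclei above both reference percentiles were 94.6% after thinning (main 98.3%, mean of 2 libraries). Stretches per nucleus were 0.902 at 2000 reads and 21.8 with no thinning (main 4.16), where class 14 stood above both references.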

Other observations

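The fetal nucleus of class 14 had 3203 reads, of which 1.65% lay in the basal set, 5.25% in the mature luminal set, 0.874% in the progenitor set and 3.43% in the fetal set. It is a single nucleus and is given as a value only.

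A distal region 60387 bases from Axin2, a Wnt target (chr11:109011170-109012169), had 43 and 105 reads in class 14, from 10 and 27 nuclei, against 178 and 342 in basal-like and 1438 and 1647 in mature luminal-like nuclei. In RPM this was 163.9 and 179.2, between the 110.2 and 85.6 of basal-like and the 250.3 and 201.3 of mature luminal-like nuclei. It was called higher than both references only with promoter-poor references. Distal regions called higher than both under 1 alternative each also lay near Fosl2, an AP-1 family gene (14 and 4 reads from 4 and 2 nuclei), and within Capg, an actin-capping gene (15 and 25 reads from 6 and 10 nuclei). All 3 were picked after their values were seen.

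Named promoter regions that were higher in class 14 but not called against both included that of Tex30 (15 and 36 reads), whose gene span was called, and that of Kcns3, a potassium channel gene (10 and 31 reads), with log2 fold changes of 2.14 (edgeR adjusted p 0.00198) against basal-like and 1.32 (edgeR adjusted p 0.0920) against mature luminal-like nuclei.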
